A study of Mus musculus with 27 samples.

Results

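The mitochondrial genome of the mouse encodes 37 genes, and all of them had a row in the gene expression table of this study, 37 of its 54532 genes. They were taken by their chromosome name, MT, and comprised 13 mRNAs, 2 rRNAs and 22 tRNAs. The transcripts were measured by bulk RNA sequencing of the tibialis anterior, a limb muscle made mostly of fast-twitch fibres, after volumetric muscle loss (VML), the removal of more tissue than a muscle can regrow. Male C57BL/6 mice aged 8 weeks had 40% of the muscle excised in a partial-thickness defect, and the muscles were taken at 3, 7, 14 or 21 days (n = 5, 6, 6 and 5), beside muscles of uninjured mice (n = 5). All the groups were of this one strain, with no transgene and no drug treatment in the labels. The public record calls the excision unilateral, while the methods describe a bilateral one, and the labels do not say which muscles entered a library, so each of the 27 samples is counted as 1 replicate and the p-values measure only the spread between these samples, which may be technical. RNA was selected with poly-T beads and sequenced without a record of strand.

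Mitochondrial DNA is a small circle without introns, present in many copies per cell and transcribed from both strands by a polymerase of its own. Each strand gives one long precursor, in which tRNAs stand between most of the mRNAs and rRNAs, and excision of the tRNAs frees the RNAs on either side. The mRNAs encode core subunits of complexes I, III and IV of the respiratory chain and of the ATP synthase (complex V), whereas the other subunits of these complexes, all of complex II and every protein needed to copy, transcribe and translate the mitochondrial genome are encoded in the nucleus. Muscle fibres are rich in mitochondria, and fibres of the slow and oxidative kinds hold the most.

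On GRCm38 the annotated genes ran from base 1 to base 15422 of MT, 28 on the plus strand and 9 on the minus strand (mt-Nd6 and 8 tRNAs). A total of 9 neighbouring pairs shared bases, from 1 base between mt-Atp6 and mt-Co3 to 43 bases between mt-Atp8 and mt-Atp6, so that reads from such ends could be counted for either gene or for none. The pair mt-Nd5 and mt-Nd6 lay on opposite strands and shared 14 bases. Because the libraries did not keep the strand, the reads of mt-Nd6 and of the 8 tRNAs on the minus strand cannot be told apart from RNA of the opposite strand.

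The sequences of mt-Atp8, the mRNA with the fewest reads, and of 4 tRNAs named below are shown. They were cut from the reference transcripts of GRCm38 and are written 5′ to 3′ in lower case, with the bases that another annotated gene also covers in capitals.
mt-Atp8, MT:7766-7969, plus strand: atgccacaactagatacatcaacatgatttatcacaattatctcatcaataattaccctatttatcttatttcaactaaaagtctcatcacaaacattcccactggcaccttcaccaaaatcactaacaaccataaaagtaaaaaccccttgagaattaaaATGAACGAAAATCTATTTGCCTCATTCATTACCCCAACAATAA
mt-Ti, MT:3706-3774, plus strand: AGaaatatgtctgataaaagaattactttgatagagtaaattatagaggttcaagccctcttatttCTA
mt-Ts2, MT:11613-11671, plus strand: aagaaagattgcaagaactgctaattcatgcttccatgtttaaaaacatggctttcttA
mt-Tp, MT:15356-15422, minus strand: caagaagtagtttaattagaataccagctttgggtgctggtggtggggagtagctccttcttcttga
mt-Tc, MT:5192-5257, minus strand: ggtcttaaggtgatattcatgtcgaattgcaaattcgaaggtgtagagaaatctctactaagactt
The capitals of mt-Atp8 are the start of mt-Atp6, which encodes another subunit of the ATP synthase. Those of mt-Ti lie in mt-Nd1 at its 5′ end and, on the other strand, in mt-Tq at its 3′ end. mt-Ts2 shares 1 base with mt-Tl2, and mt-Tp and mt-Tc share none with another annotated gene.

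Several of the mRNAs end within a stop codon that only the poly(A) tail completes. The length of mt-Co3, mt-Nd4 and mt-Cytb exceeded a multiple of 3 by 1 base. Their last 24 bases are shown with the base that opens the unfinished stop codon in capitals.
mt-Co3, MT:9367-9390: tctccatttattgatgaggatctT
mt-Nd4, MT:11521-11544: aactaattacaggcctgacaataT
mt-Cytb, MT:15265-15288: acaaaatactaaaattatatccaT

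A segment of the mitochondrial genome is also present in the nucleus, and reads from it have more than one place of origin. On chromosome 1, 7 genes annotated as pseudogenes of mitochondrial genes (Gm29216, Gm28661, Gm10925, Gm28437, Gm28438, Gm10222 and Gm28439, between 24611535 and 24616197 on the minus strand) matched MT:6390-11042, a stretch of 4653 bases. Over 4140 aligned bases the copies differed from the mitochondrial genes by 2 substitutions and no gap, an identity of 99.95%. Positions are counted from 1 at the first base of the mitochondrial gene, with its base first. The substitutions were A1066T between mt-Co1 and Gm29216 and T3C between mt-Nd3 and Gm28438, of which the latter is shown over the first 60 bases with the differing base in capitals.
mt-Nd3, MT:9459-9518, plus strand: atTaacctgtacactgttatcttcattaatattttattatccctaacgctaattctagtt
Gm28438, chr1:24613060-24613119, minus strand: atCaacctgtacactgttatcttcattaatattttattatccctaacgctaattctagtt
In total 11 mitochondrial genes lay wholly inside the copied segment, namely the mRNAs mt-Co2, mt-Atp8, mt-Atp6, mt-Co3, mt-Nd3 and mt-Nd4l and 5 tRNAs. The last 31.3% of mt-Co1 and the first 63.6% of mt-Nd4 lay inside it as well.

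The genes inside the segment had fewer reads than the other mRNAs. FPKM is a level per gene length and library size. Times the length, 100% of the values above 0 came out as whole multiples of 1 read per sample (within 0.01), so the reads behind each value are known. The 6 mRNAs inside the segment had median counts of 32 to 14555 reads per sample, and the 7 that lay outside it or only partly inside had 112065 to 772523. The former made up 26.3% of the length of the mitochondrial mRNAs and held 1.42% of their reads. The copies on chromosome 1 held 8445 to 63772 reads per sample in sum, with a median of 22952, against a median of 38225 for the 6 mRNAs. How reads with more than one match were assigned is not given in the sources used here, and the levels of these 11 genes are therefore uncertain. Those of mt-Co1 and mt-Nd4 are uncertain too, for the parts that lie inside the segment.

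**Figure D1:**
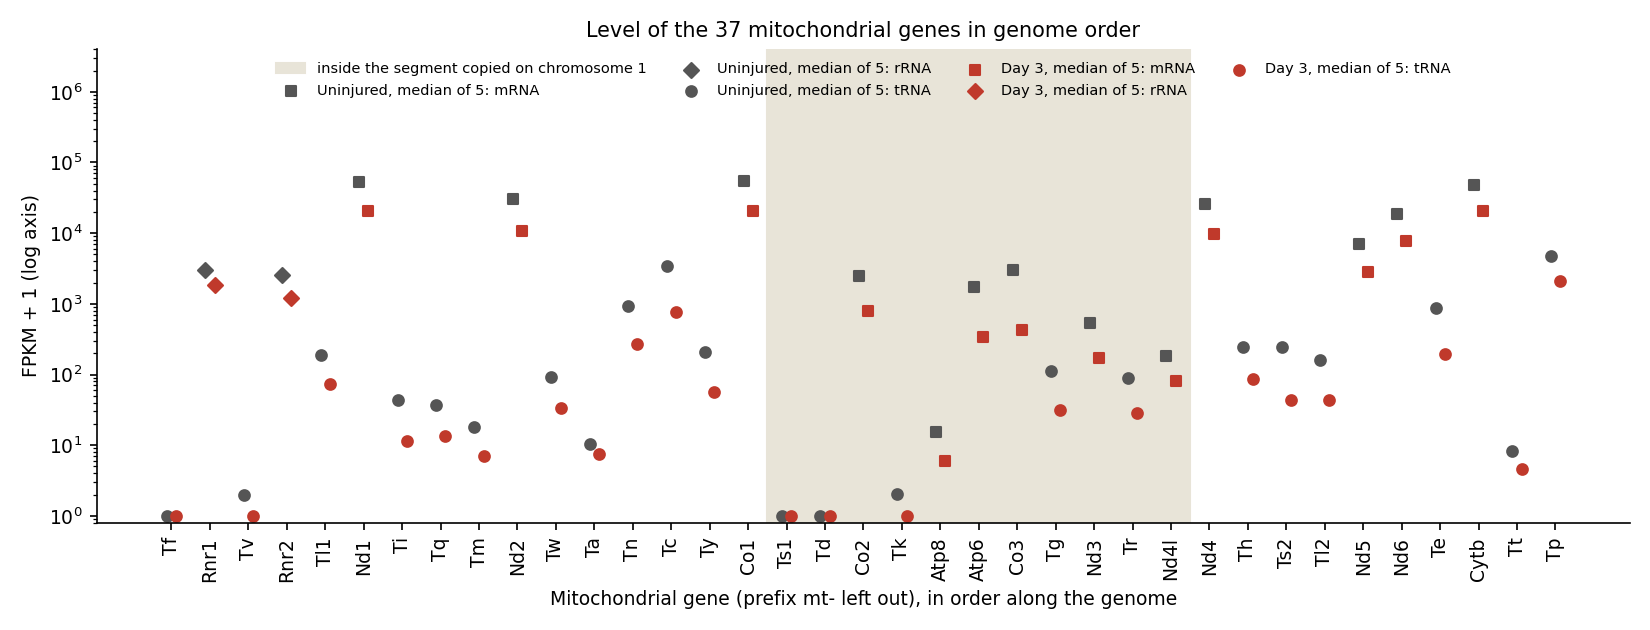
Median FPKM + 1 (log axis) of the 37 mitochondrial genes in their order along the genome, without injury (grey) and at day 3 (red), with squares for mRNAs, diamonds for rRNAs and circles for tRNAs. The shaded genes lie inside the segment copied on chromosome 1, where the 6 mRNAs lie lower than the 7 mRNAs outside it or only partly inside, and the red symbol lies below the grey one for each mRNA and rRNA.

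Sequencing depth was 14376395 to 24436763 reads in genes per sample (median 17398586). Mitochondrial genes took a large part of it. Their share of reads was 23.2%, 21.8%, 23.97%, 24.9% and 17.7% in the 5 uninjured samples and 16.8%, 13.01%, 9.50%, 8.50% and 14.5% in the 5 samples of day 3. All samples of day 3 lay below all uninjured ones. At day 7 the share ran from 7.94% to 28.4% with a median of 11.4%, and at day 14 from 12.3% to 28.5% with a median of 18.9%. At day 21 it was 18.1%, 22.4%, 15.6%, 11.1% and 35.1%. The groups of days 7, 14 and 21 all reached above the highest uninjured sample, each through 1 library (day 7 replicate 6, day 14 replicate 5 and day 21 replicate 5).

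The mRNAs accounted for nearly all of these reads. They held 21.7% ± 2.75 of all reads in uninjured muscle (SD, n = 5) and 12.04% ± 3.33 at day 3 (n = 5). Their share was 13.1% ± 7.45 on day 7 and 18.3% ± 5.37 on day 14 (n = 6 each), and 19.8% ± 8.75 on day 21 (n = 5). The rRNAs held 0.577% ± 0.107 and 0.394% ± 0.132 of the reads without injury and at day 3, and the tRNAs held 0.0622% ± 0.0097 and 0.0359% ± 0.0123. Mitochondrial rRNAs are abundant in the cell and carry only short A tails, and mature tRNAs carry none, so these shares describe what poly-T selection retained and not the RNA in the muscle.

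**Figure D2:**
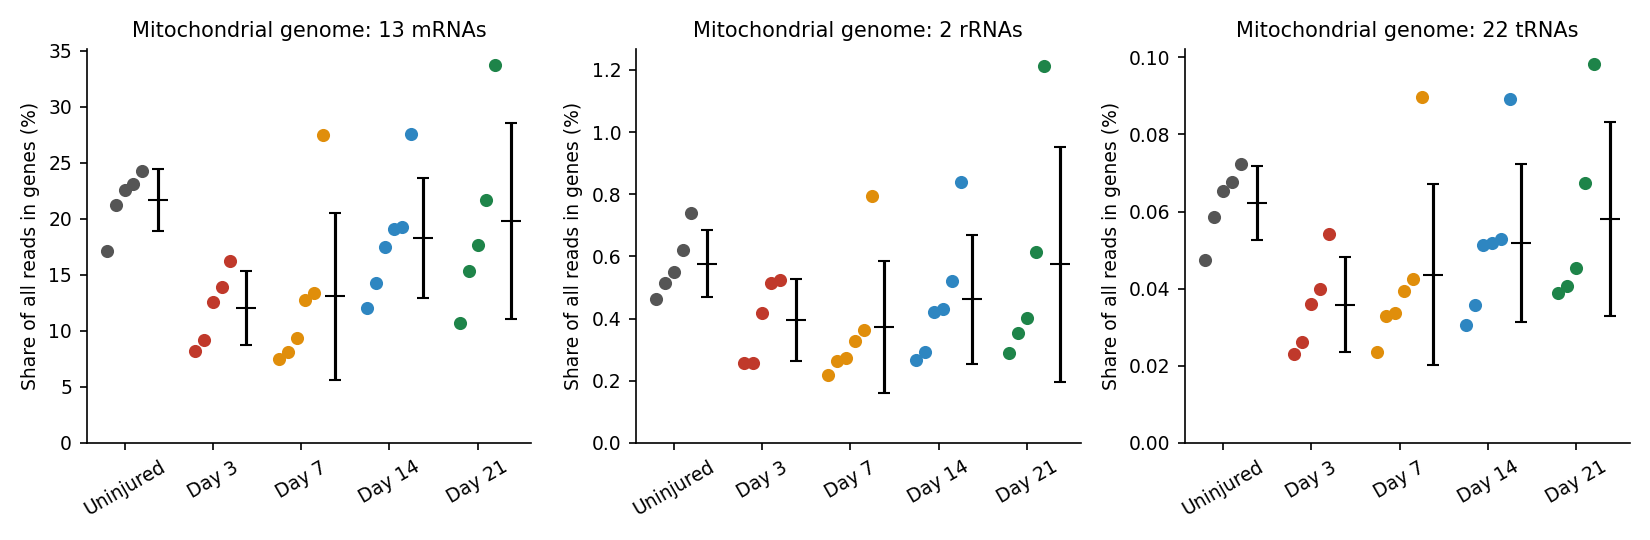
Share of all reads in genes (%) held by the mitochondrial mRNAs, rRNAs and tRNAs in each sample (points) with the group mean and SD (bars), for uninjured muscles and days 3, 7, 14 and 21. The 5 samples of day 3 lie below the uninjured ones for the mRNAs, and 1 library of day 7 stands apart at the top of its group in all 3 panels.

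Some libraries stood apart from their groups before any mitochondrial gene was considered. Over the 14595 tested genes outside the mitochondrial genome, 9 of the 27 samples resembled the mean of another group more than the rest of their own. Day 7 replicate 6, with the high mitochondrial share, was nearest to day 21. Day 3 replicate 5 was nearest to day 7 and day 7 replicate 5 to day 3, and the summed FPKM of the 11 macrophage and leukocyte markers was 595 in the former (1574 to 3042 in the other samples of day 3) and 2975 in the latter (82.1 to 722 in the others of day 7). Whether the labels of these 2 libraries were exchanged was not tested, and the labels were kept as given. Their mitochondrial shares were 14.5% and 8.32%, the former within the range of both groups and the latter within the range of day 7 and just below the lowest sample of day 3 (8.50%). Counts of mitochondrial genes are given below with and without them.

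Each gene was compared with the uninjured muscles by limma on log2(FPKM + 1), in one fit of the 14630 genes whose FPKM reached 0.5 in 5 or more samples, and called at a Benjamini-Hochberg adjusted p under 0.05 over all of them. A log2 fold change is the difference of group means on this scale, given ± its standard error. A total of 35 mitochondrial genes passed the filter, among them all mRNAs and both rRNAs. The tRNAs mt-Tf, listed at 0 in all samples, and mt-Td, with at most 1 read in a sample, were not tested.

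At day 3, 12 of 13 mRNAs fell, with a median log2 fold change over the 13 of -1.52, against 19.8% of all tested genes called lower, 23.4% called higher and a median over all of 0.01. In 10 of the 13, all samples of day 3 lay below all uninjured samples, and how many of all tested genes did so was not counted. At day 7, 11 of 13 fell (median -1.44), against 14.4% of all tested genes called lower and 15% called higher. None of the 13 was free of overlap at day 7, where replicate 6 reached the uninjured range for each. At day 14, 2 of 13 fell, mt-Co2 and mt-Co3 (median -0.71), against 11.3% lower and 9.02% higher among all tested genes. At day 21 none of the 13 passed limma's test at the adjusted threshold (median -0.49, or -0.23 without day 21 replicate 4 and -0.79 without day 21 replicate 5), against 1.69% lower and 1.74% higher, and 1 of the 13 had an unadjusted p under 0.05. No mitochondrial mRNA was called higher against uninjured muscle, and all 13 estimates were negative at each of the 4 time points with the deposited scaling, while those of mt-Cytb, mt-Nd4, mt-Nd4l, mt-Nd5 and mt-Atp8 turned positive at 1 or more time points with another scaling. Without day 3 replicate 5 and day 7 replicate 5, the counts at days 3, 7, 14 and 21 were 11, 6, 2 and 0. Without day 7 replicate 4 alone, the count at day 7 was 6, and without uninjured replicate 3, uninjured replicate 4 or day 14 replicate 1 that at day 14 was 1.

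The size of these changes rests on how libraries are scaled. The number of reads to which the deposited FPKM refer was, in the group means, 0.782 times the sample's own total in uninjured muscle and 1.25, 1.18, 1.04 and 0.897 times it after 3, 7, 14 and 21 days. With FPKM rescaled to a common sum, the median change of all genes at day 3 shifted to 0.51 and that of the mRNAs to -0.70, a difference of -1.21, and 10 mRNAs were called. With each sample's own total as the denominator, the median of all genes was 0.40, that of the mRNAs relative to it -1.26, and 9 were called. With a common sum over the genes outside the mitochondrial genome, these values were 0.32, -1.32 and 10. Over all tested genes, 2.2% were called lower and 46.9% higher at day 3 with the first of these scalings, 4.22% and 44.7% with the second and 6.21% and 36.9% with the third. Quantile normalization, which replaces values by their rank, gave a median of all genes of -0.12, a median of the mRNAs relative to it of -0.23 and 4 calls, with 25.5% of all genes lower and 19% higher. With no filter on low values, 4, 3 and 0 mRNAs were called at days 3, 7 and 14, and 4 at day 7 when each fit held no other groups. Shares of all genes called are not set beside these counts, which are therefore no result about the mRNAs alone. The median over the 13 mRNAs was negative with each of these scalings at each of the 4 time points.

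Complex I oxidises NADH and pumps protons, and 7 of its membrane subunits are mitochondrially encoded. All 7 fell at day 3, by log2 fold changes of -1.37 to -1.59, and 6 fell at day 7, where mt-Nd4l had -0.89 ± 0.52 (adjusted p = 0.198). Of all tested genes 19.8% and 14.4% were called lower. With a common sum of FPKM or each sample's own total, 5 of the 7 were called at day 3, against 2.2% and 4.22% of all tested genes. Quantile normalization gave 1 of the 7 (median -0.20), against 25.5%. FPKM of mt-Nd1 (ENSMUSG00000064341, MT:2751-3707) was 54150, 46115, 57844, 53616 and 38160 without injury and 27507, 20610, 12984, 10381 and 22006 at day 3. It was 9077 to 62750 at day 7 (median 15664), 11762 to 43909 at day 14 (median 30936), and 35655, 40753, 27110, 22668 and 75026 at day 21. Every sample of day 3 was below the uninjured range, as were 5 of 6 samples at day 7, while day 7 replicate 6 and day 21 replicate 5 were above it. Its log2 fold change was -1.49 ± 0.48 at day 3 (adjusted p = 0.0133 by limma, exact permutation p = 0.00794, the smallest that 5 against 5 allows) and -0.43 ± 0.48 at day 21 (adjusted p = 0.660).

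The other subunits of complex I had very unequal levels. Mean FPKM without injury was 29014 ± 4511 for mt-Nd2, 24566 ± 4132 for mt-Nd4, 18214 ± 2352 for mt-Nd6 and 7227 ± 1046 for mt-Nd5 (SD, n = 5). The subunit genes inside the copied segment were far lower per length, with 645 ± 261 for mt-Nd3 and 227 ± 76.7 for mt-Nd4l. At day 3 these means were 10229 ± 4311, 9331 ± 3733, 7414 ± 2688, 2722 ± 886, 229 ± 115 and 78.9 ± 24.59, in the same order. mt-Nd6, the mRNA on the minus strand, changed by -1.37 ± 0.42 (adjusted p = 0.0101) and mt-Nd5, which overlaps its end from the plus strand, by -1.46 ± 0.41 (adjusted p = 0.00490). None of the 7 passed the test at day 14 (-0.35 to -0.94) or at day 21 (-0.29 to -0.94).

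mt-Cytb (ENSMUSG00000064370, MT:14145-15288) encodes cytochrome b, the one mitochondrially encoded subunit of complex III, which passes electrons from ubiquinol to cytochrome c. Its FPKM was 54332, 43139, 52777, 48086 and 36790 without injury and 26444, 20384, 12641, 10610 and 22759 at day 3. It ran from 9780 to 58902 at day 7 (median 16616) and from 14639 to 48271 at day 14 (median 34299), and was 38203, 44734, 29049, 21098 and 78406 at day 21. The samples of day 3 were all below the uninjured range and those of day 21 lay on both sides of it. It fell by 1.41 ± 0.45 on the log2 scale at day 3 (adjusted p = 0.0136) and by 1.37 ± 0.43 at day 7 (adjusted p = 0.0198), and had -0.58 ± 0.43 and -0.28 ± 0.45 at days 14 and 21 (adjusted p = 0.356 and 0.768). Its direction at day 3 was not kept under quantile normalization, which gave 0.02.

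Complex IV, cytochrome c oxidase, hands electrons to oxygen, and its 3 mitochondrially encoded subunits form the catalytic core. All 3 fell at days 3 and 7, with medians of -2.29 and -2.30, against 19.8% and 14.4% of all tested genes called lower. mt-Co1 (ENSMUSG00000064351, MT:5328-6872), which holds the haem centres, had FPKM of 55482, 51637, 59054, 61762 and 43377 without injury and 21518, 20749, 12491, 9564 and 23499 at day 3. It ran from 10958 to 62931 at day 7 (median 17930), from 22459 to 56097 at day 14 (median 34834), and was 35146, 43224, 31300, 20111 and 86762 at day 21. All samples of day 3, 5 of 6 at day 7, 5 of 6 at day 14 and 4 of 5 at day 21 were below the uninjured range. The log2 fold changes were -1.70 ± 0.43 (adjusted p = 0.00255), -1.41 ± 0.41 (0.0132), -0.63 ± 0.41 (0.282) and -0.49 ± 0.43 (0.567).

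mt-Co2 (ENSMUSG00000064354, MT:7013-7696) encodes the subunit that receives electrons from cytochrome c, and it lies inside the copied segment. Its FPKM was 2498, 2378, 5486, 5798 and 1532 without injury and 1290, 785, 410, 309 and 808 at day 3, and it ran from 308 to 1911 at day 7 (median 654) and from 339 to 1516 at day 14 (median 1252). The uninjured samples alone differed widely, with replicates 3 and 4 the highest. All samples of days 3 and 14 were below this range, and it fell by 2.29 ± 0.52 (adjusted p = 0.00101), 2.30 ± 0.50 (0.00174) and 1.66 ± 0.50 (0.0208) on the log2 scale at days 3, 7 and 14. At day 21 it had 1508, 2434, 1216, 875 and 2532, with 3 of 5 below the uninjured range and -0.97 ± 0.52 (adjusted p = 0.303).

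mt-Co3 (ENSMUSG00000064358, MT:8607-9390), the third core subunit, had the most negative estimate of the mRNAs at days 3, 7, 14 and 21. FPKM was 1516, 3783, 3020, 3346 and 1059 without injury and 426, 746, 193, 288 and 559 at day 3, with no overlap. It was 157 to 1998 at day 7 (median 286), 255 to 1252 at day 14 (median 577) and 1098, 1346, 734, 391.7 and 1544 at day 21, with 5 of 6, 5 of 6 and 2 of 5 samples below the uninjured range. The log2 fold changes were -2.52 ± 0.58 (adjusted p = 0.00117), -2.73 ± 0.56 (0.00115), -2.13 ± 0.56 (0.00983) and -1.31 ± 0.58 (0.210).

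The ATP synthase has mt-Atp6, part of its proton channel, and the small mt-Atp8 from the mitochondrial genome, both inside the copied segment. FPKM of mt-Atp6 (ENSMUSG00000064357, MT:7927-8607) was 1704, 827, 2843, 2884 and 754 without injury and 994, 371, 210, 155 and 334 at day 3, where 4 of 5 samples were below the uninjured range. It ran from 164 to 1598 at day 7 (median 281) and from 232 to 1779 at day 14 (median 1067), and was 1327, 1809, 1561, 326 and 1458 at day 21. It fell by 2.21 ± 0.64 at day 3 (adjusted p = 0.00645) and by 2.08 ± 0.61 at day 7 (0.0126), and had -0.88 ± 0.61 and -0.46 ± 0.64 at days 14 and 21 (0.310 and 0.729). mt-Atp8, with FPKM of 13.8 ± 4.88 without injury and 5.81 ± 4.12 at day 3, was the mRNA that did not pass at day 3 (-1.24 ± 0.54, adjusted p = 0.0637). Its median of 32 reads per sample was the lowest of the 13.

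**Figure D3:**
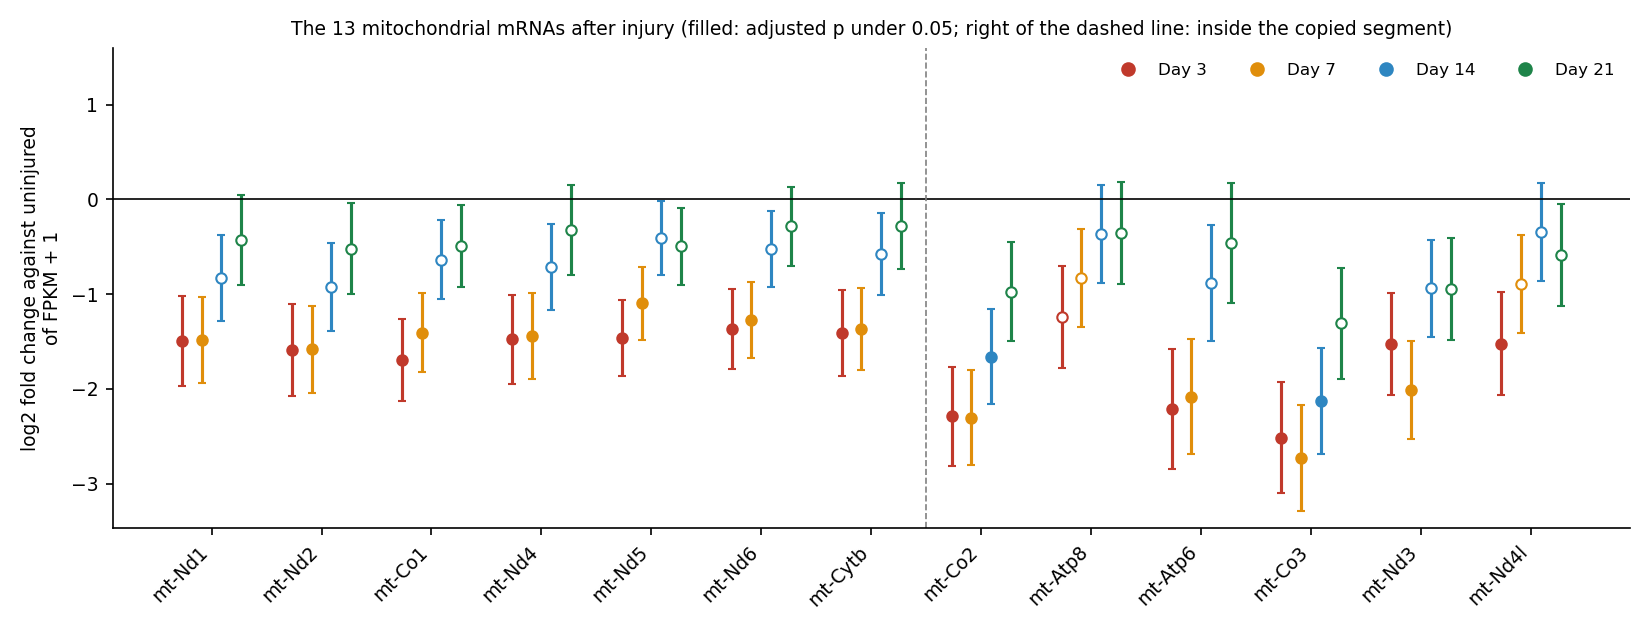
Log2 fold change of FPKM + 1 against uninjured muscle for each mitochondrial mRNA at days 3, 7, 14 and 21 (points, with standard errors as bars), filled where the adjusted p was under 0.05. The 7 genes left of the dashed line lie outside the copied segment or partly inside it and keep close together at each time point, and the 6 genes right of it lie inside and spread more widely.

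The mRNAs were also read apart from the copied segment. The 7 that lay outside it or only partly inside had median log2 fold changes of -1.48, -1.41, -0.63 and -0.43 at days 3, 7, 14 and 21, with 7, 7, 0 and 0 called lower, against 19.8%, 14.4%, 11.3% and 1.69% of all tested genes. The 6 inside had medians of -1.87, -2.04, -0.91 and -0.76, with 5, 4, 2 and 0 called. Both mRNAs called at day 14 therefore belong to the segment with an uncertain origin of reads. The 7 copies on chromosome 1 went with them, with 7, 6, 0 and 0 called lower and medians of -1.67, -1.65, -0.98 and -0.46, and how far reads of one set were counted in the other was not tested.

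The division of reads among the large mRNAs was described by shares. Of all reads in mitochondrial mRNAs, mt-Co1 held 30.2% ± 1.23 without injury and 27.3% ± 2.42 at day 3, mt-Cytb 19.4% ± 0.933 and 21.3% ± 0.356, and mt-Nd1 17.2% ± 0.441 and 17.9% ± 0.517 (SD, n = 5 each). At day 21 these shares were 28.8% ± 1.69, 21.3% ± 0.583 and 17.1% ± 1.12 (n = 5). They are shares of one total and were not tested. A pair of libraries stood apart in ratios between mRNAs. The ratio of the FPKM of mt-Nd5 to mt-Nd4 was 0.699 in day 7 replicate 1 and 0.7098 in day 14 replicate 1, against 0.219 to 0.3803 in the other 25 samples. In the same libraries the ratio of mt-Nd1 to mt-Co1 was 0.601 and 0.524 (0.733 to 1.28 elsewhere) and that of mt-Nd6 to mt-Nd5 1.34 and 1.31 (2.14 to 3.57 elsewhere). Of their mRNA reads, mt-Co1 held 36.4% and 38.5% (at most 32.9% elsewhere) and mt-Nd5 9.11% and 8.95% (at most 5.95% elsewhere). The shares of mt-Nd1 and mt-Nd4 were the lowest of the 27 samples, at 13.5% and 12.5% and at 9.85% and 9.53%, while those of mt-Nd6, 3.47% and 3.33%, lay inside the uninjured range. Ratios within a sample do not depend on the scaling between samples by a factor. They do depend on how reads of the copied segment were assigned where mt-Co1 or mt-Nd4 enters, since both lie partly inside it.

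**Figure D4:**
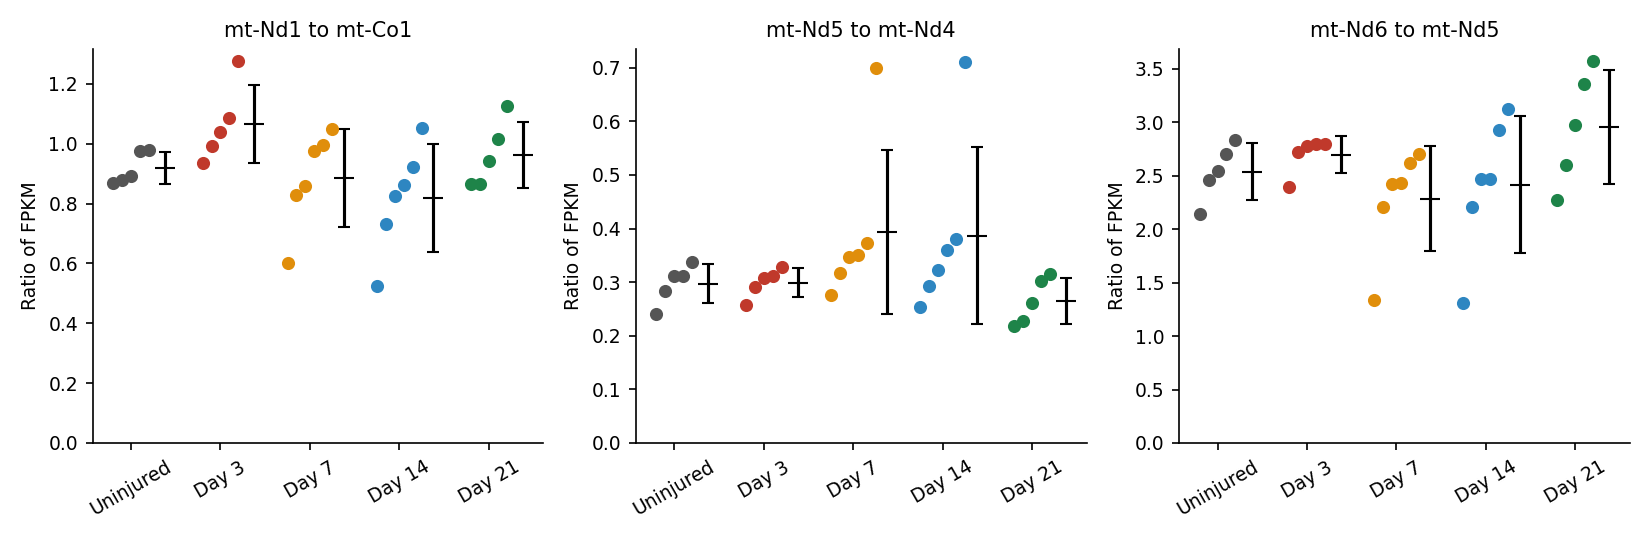
Ratio of the FPKM of mt-Nd1 to mt-Co1, of mt-Nd5 to mt-Nd4 and of mt-Nd6 to mt-Nd5 in each sample (points) with the group mean and SD (bars). In each panel 1 sample of day 7 and 1 of day 14 stand apart from the others, at 0.699 and 0.7098 for mt-Nd5 to mt-Nd4.

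The rRNAs mt-Rnr1 (12S, MT:70-1024) and mt-Rnr2 (16S, MT:1094-2675) build the small and the large subunit of the mitochondrial ribosome. FPKM of mt-Rnr1 was 4167, 2898, 4769, 2984 and 2732 without injury and 2259, 1855, 982, 879 and 2183 at day 3, and that of mt-Rnr2 was 2733, 2210, 3347, 2556 and 2018 and then 1454, 1211, 622, 574 and 1597. No sample of day 3 reached the uninjured range of either gene. Both fell at day 3 (-1.18 ± 0.46, adjusted p = 0.0381, and -1.34 ± 0.46, adjusted p = 0.0217) and at day 7 (-1.33 ± 0.44, 0.0235, and -1.29 ± 0.44, 0.0314), and neither passed at day 14 (-0.82 ± 0.44 and -0.80 ± 0.44) or day 21 (-0.39 ± 0.46 and -0.38 ± 0.46). Against the mRNAs the proportion of rRNA reads overlapped between all groups. Per 100 mRNA reads, rRNA reads numbered 2.66 ± 0.357 in uninjured muscle, then 3.24 ± 0.359, 3.00 ± 1.04, 2.45 ± 0.370 and 2.78 ± 0.707 after 3, 7, 14 and 21 days (SD).

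Mitochondrial tRNAs carry amino acids to that ribosome, and in the precursor they mark where it is cut. Of the 20 tested tRNAs, 10, 11, 2 and 2 fell at days 3, 7, 14 and 21, and none was called higher against uninjured muscle. Among all tested genes 19.8%, 14.4%, 11.3% and 1.69% were called lower, so that at day 14 the tRNAs were called no more often than genes at large in this fit. Those of day 14 were mt-Tg (-1.61 ± 0.48, adjusted p = 0.0198) and mt-Tw (-1.34 ± 0.44, adjusted p = 0.0330). Medians over the 20 were -1.48, -1.60, -1.02 and -0.97. The call of mt-Tk at day 7 rests on at most 4 reads in a sample and is no measure of a change. Without day 3 replicate 5 and day 7 replicate 5, the rRNAs and tRNAs called lower numbered 12, 7, 3 and 2 at the 4 time points, against 12, 13, 2 and 2 with them. With FPKM rescaled to a common sum they numbered 3, 7 and 0 at days 3, 7 and 14, and with each sample's own total 4, 7 and 0. Of all tested genes 2.2%, 1.43% and 0.731% were called lower with the former, and 4.22%, 2.9% and 1.97% with the latter. Single libraries moved these counts too. The count at day 3 was 7 without day 3 replicate 4, and that at day 7 was 6 to 8 without uninjured replicate 1, 3 or 4 or day 7 replicate 1, 4 or 5. At day 14 it was 0 without uninjured replicate 1, 1 without uninjured replicate 3 or day 14 replicate 2, 4 or 6, and 5 without day 21 replicate 4. At day 21 it was 6 without day 21 replicate 5.

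The 5 tRNAs with the highest median reads per sample were mt-Tp (3671), mt-Tc (2316), mt-Tn (792), mt-Te (469) and mt-Ty (136), for proline, cysteine, asparagine, glutamic acid and tyrosine. All 5 lie on the minus strand, whereas 14 of the 22 tRNA genes are on the plus strand. The fifth place holds for the median only, since mt-Th, on the plus strand, had a median of 132. Over all samples mt-Th had 4801 reads, above the 3906 of mt-Ty. Mean FPKM of mt-Tp was 5013 ± 1079 without injury and 2215 ± 993 at day 3 (-1.27 ± 0.43, adjusted p = 0.0178), so the FPKM of this tRNA of 67 bases without injury was above that of mt-Co2 or mt-Rnr1. At day 3 mt-Te fell by 2.10 ± 0.52 (adjusted p = 0.00211) and mt-Ty by 1.84 ± 0.48 (0.00292), with no overlap between the groups, and mt-Tc and mt-Tn fell by 1.58 ± 0.56 (0.0244) and 1.498 ± 0.54 (0.0276). At day 7 mt-Tp, mt-Te and mt-Ty were called and mt-Tc and mt-Tn were not, with -0.85 ± 0.53 and -0.70 ± 0.52 (adjusted p = 0.238 and 0.325). The latter pair had 0.02 ± 0.56 and -0.05 ± 0.54 at day 21.

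At day 21, when no mitochondrial mRNA or rRNA passed, mt-Ti (isoleucine) and mt-Ts2 (serine) did. FPKM of mt-Ts2 was 458, 176, 334, 245 and 125 without injury and 127, 48.4, 64.7, 10.2 and 78.9 at day 21, from 9 to 126 reads. Of the samples of day 21, 4 were below the uninjured range and replicate 1 was just inside it, with a change of -2.23 ± 0.50 (adjusted p = 0.0146 by limma, exact permutation p = 0.0159). mt-Ts2 was also lower at days 3 and 7 (-1.92 ± 0.50, adjusted p = 0.00298, and -2.28 ± 0.48, 0.00132), and had -1.16 ± 0.48 at day 14 (0.0843). FPKM of mt-Ti was 80.5, 14.3, 43.2, 44.7 and 22.8 without injury and 12.9, 5.44, 1.73, 0 and 28.6 at day 21, from 0 to 22 reads, and its change of -2.60 ± 0.63 (adjusted p = 0.0225, exact permutation p = 0.0317) rests on these few reads. The call of mt-Ti was lost without day 21 replicate 2 (adjusted p = 0.0530 by limma) or 4 (0.0562) and without uninjured replicate 1 (0.0661) or 4 (0.0612). The neighbours of mt-Ts2 in one run of tRNAs, mt-Th and mt-Tl2, had -1.55 ± 0.49 and -1.99 ± 0.60 at day 21 (adjusted p = 0.0774 and 0.0619), and the mRNAs on either side of the run, mt-Nd4 and mt-Nd5, had -0.32 ± 0.47 and -0.49 ± 0.41 (0.744 and 0.530). Whether the tRNAs of the run differed from the flanking mRNAs was not tested.

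The last time point was also compared with the first. A call at day 3 and none at day 21 does not show a difference between them, so day 21 was set against day 3 in the same fit. mt-Co1 rose by 1.21 ± 0.43 on the log2 scale (adjusted p = 0.0408), mt-Atp6 by 1.76 ± 0.64 (0.0434) and mt-Tc by 1.598 ± 0.56 (0.0366), and no mitochondrial gene was called lower. Among all tested genes 9.23% were called higher and 16.2% lower in this comparison. All 13 mRNAs had positive estimates with the deposited scaling, with a median of 1.08, while those of mt-Nd1, mt-Nd2, mt-Nd5 and mt-Nd6 turned negative under quantile normalization and that of mt-Nd3 with a common sum of FPKM, and 10 had an unadjusted p under 0.05. Of the samples of day 21, 4 lay above all samples of day 3 for mt-Co1 and mt-Atp6 and 3 for mt-Tc. The same muscles gave 0.02 to -0.49 for these genes against uninjured muscle, and both comparisons share the samples of day 21. These calls depend on single libraries, since the number of mitochondrial genes called higher was 0 without day 3 replicate 3 or 4 or day 21 replicate 2 or 5, 5 without day 3 replicate 1 or day 7 replicate 4, 7 without day 14 replicate 1, 8 without day 21 replicate 4 and 11 without day 7 replicate 6, and 5 were called without day 3 replicate 5 and day 7 replicate 5. None was called higher with FPKM rescaled to a common sum, with each sample's own total or with the common sum outside the mitochondrial genome. With these 3 scalings and without day 21 replicate 5, mt-Ti was called lower instead (-1.81, -1.64, -1.55 and -1.80, adjusted p = 0.0116, 0.0278, 0.0483 and 0.0293 by limma), a tRNA with at most 22 reads per sample at day 21 that had -1.22 ± 0.63 (adjusted p = 0.160) with the deposited scaling and all samples.

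The nuclear partners of these subunits were lower at days 3 and 7 as well. Of 77 nuclear genes for subunits of complexes I, III, IV and V, 72, 63, 18 and 0 were called lower at days 3, 7, 14 and 21 and 3 higher at day 3, with medians of -1.14, -0.99, -0.64 and -0.26. With the deposited scaling none was called higher after day 3. Among all tested genes 19.8%, 14.4%, 11.3% and 1.69% were called lower at these time points and 23.4% higher at day 3. With FPKM rescaled to a common sum, 15 of the 77 were called lower at day 3 (median -0.33), with each sample's own total 35 (-0.49), with a common sum outside the mitochondrial genome 57 (-0.62) and with quantile normalization 66 (-0.84). With these scalings, in the same order, 2.2%, 4.22%, 6.21% and 25.5% of all tested genes were called lower at day 3. Of the 77, the count called lower at day 7 was 12, 33 and 38 with the common sum, each sample's own total and no filter on low values. Of all tested genes 1.43% and 2.9% were called lower at day 7 with the first 2 of these. With no filter 2628 of 54532 genes were called in either direction. The count at day 14 was 0, 2, 8, 5 and 7 with the common sum, each sample's own total, the common sum outside the mitochondrial genome, quantile normalization and no filter. Of all tested genes 0.731%, 1.97%, 2.34% and 8.91% were called lower at day 14 with the first 4 of these. With no filter 1579 of 54532 genes were called in either direction. Without uninjured replicate 1 or day 14 replicate 1, 5 or 6, the count at day 14 was 7, 10, 9 or 31. With the replicate number or letter as a block it was 42 or 34. At day 21 it was 6 when the fit held only the 2 groups compared and 1 with the replicate letter as a block. Shares of all tested genes called with a block, a sample left out or only 2 groups are not given here. With the common sum, each sample's own total, the common sum outside the mitochondrial genome and quantile normalization, 3 of the 77 were called higher at day 7 with each. At day 14 these scalings gave 2, 2, 1 and 1 called higher. Of all tested genes 43.1%, 36.6%, 28.2% and 11.6% were called higher at day 7, and 11.5%, 15.6%, 12.7% and 6.88% at day 14. Complex I had 36 of 36 genes lower at day 3, among them Ndufs7 (507 ± 98.8 to 189 ± 71.2 FPKM, -1.49 ± 0.32, adjusted p = 0.000522), Ndufb9 (-1.49 ± 0.38) and Ndufa12 (-1.57 ± 0.45). Complex III had 9 of 9, with Uqcrc1 at -1.42 ± 0.23, Uqcrfs1 at -1.31 ± 0.25 and Uqcrq at -1.24 ± 0.35. Complex V had 15 of 18, with Atp5a1, the alpha subunit of the catalytic head, at -1.36 ± 0.23 (1048 ± 104 to 418 ± 107 FPKM), Atp5h at -1.28 ± 0.31 and Atp5c1 at -1.18 ± 0.25. All 4 genes of complex II, which has no mitochondrially encoded subunit, fell at day 3 (median -1.08), with Sdhb at -1.40 ± 0.29, Sdha at -1.24 ± 0.27 and Sdhc at -0.92 ± 0.21. With a common sum of FPKM 1 of the 4 was called lower (median -0.26), with each sample's own total 1 (-0.42) and with the common sum outside the mitochondrial genome 3 (-0.55).

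The nuclear genes of complex IV moved in both directions. Of its 14 nuclear genes 12 fell at day 3, led by the isoforms typical of striated muscle, Cox7a1 (1830 ± 569 to 561 ± 279 FPKM, -1.82 ± 0.41, adjusted p = 0.000860), Cox8b (-1.79 ± 0.42) and Cox6a2 (-1.42 ± 0.42). The 2 that rose were Cox8a (1.17 ± 0.22, adjusted p = 0.000178) and Cox6a1 (1.16 ± 0.25, 0.000539), which like Cox7a2 are isoforms found in most tissues. Cox7a2 itself fell (-1.09 ± 0.29, adjusted p = 0.00416), so the isoforms of most tissues did not share a direction. The one gene of complex V that rose was Atpif1 (0.98 ± 0.22, 0.000703), the inhibitor of the ATP synthase. These 4 genes were picked out after their values had been seen. The counts called higher at day 3, 2 of complex IV and 1 of complex V, were the same with each of the 5 other scalings, against 23.4% of all tested genes with the deposited scaling. With the others, the share of all tested genes called higher ran from 19% under quantile normalization to 46.9% with a common sum of FPKM. At day 21 against day 3, 57 of the 77 were called higher and 2 lower (median 0.87), against 9.23% and 16.2% of all tested genes. The number called higher was 7 with a common sum of FPKM (median 0.25), 14 with each sample's own total (0.41) and 24 with the common sum outside the mitochondrial genome (0.47), where 1.16%, 2.15% and 2.37% of all tested genes were called higher. The medians of the mitochondrial genes at day 3 were more negative than those of the nuclear genes of the same complex with the deposited scaling, but not with each alternative. Quantile normalization gave -0.20 for the mitochondrial and -0.93 for the nuclear genes of complex I, and 0.02 and -0.81 for those of complex III. The mitochondrial genes of complexes IV and V lie inside the copied segment, except mt-Co1, which lies partly inside. The median of complex IV at day 3 was the value of mt-Co2, and mt-Co1 had -1.70. Whether the mitochondrial and nuclear genes differed was not tested.

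**Figure D5:**
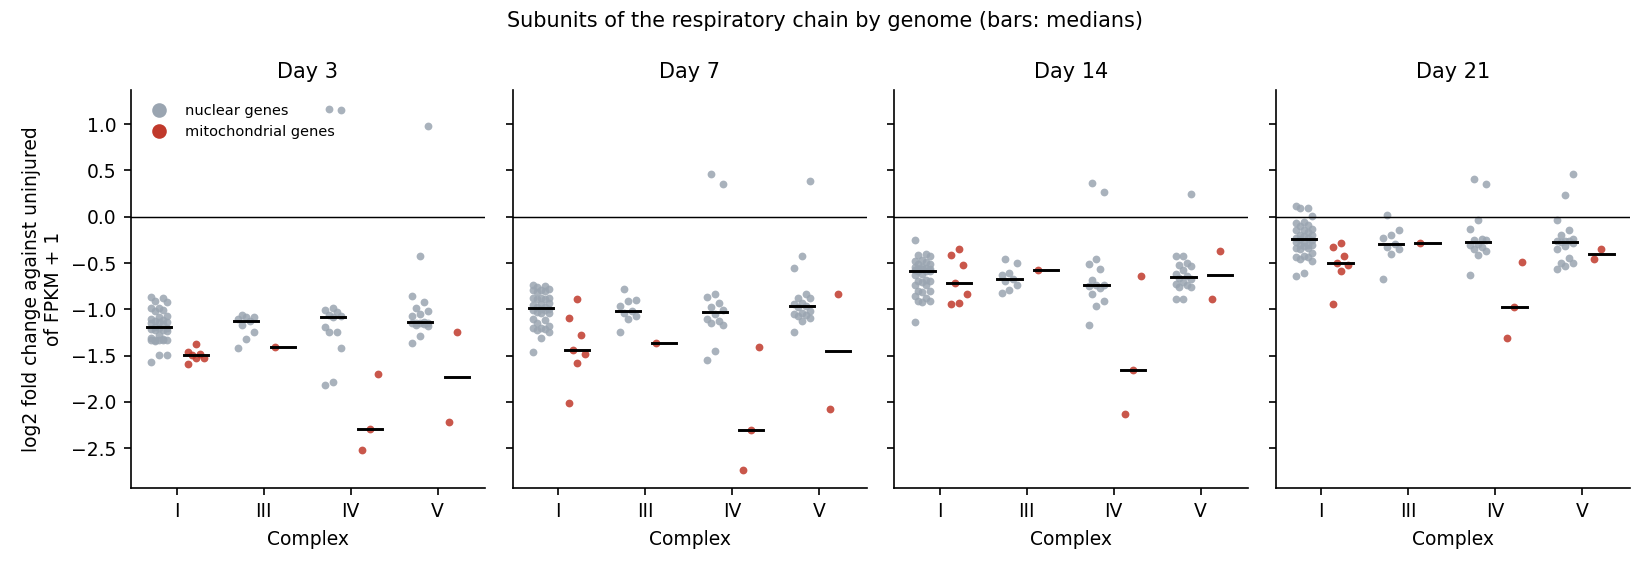
Log2 fold change of FPKM + 1 against uninjured muscle at days 3, 7, 14 and 21 for subunits of complexes I, III, IV and V, nuclear genes in grey and mitochondrial genes in red (points, 1 per gene), with bars at the medians. At day 3 the medians of the mitochondrial genes are -1.49, -1.41, -2.29 and -1.73 and lie below those of the nuclear genes in each complex, an order that quantile normalization turned in complexes I and III, and at day 21 the medians of both lie between 0 and -1. The mitochondrial genes of complexes IV and V lie inside the copied segment, mt-Co1 only partly, and their levels are uncertain.

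The nuclear genes that serve the mitochondrial genome were read in 5 lists, whose direction depended on the scaling. In the deposited FPKM their members were lower where called, with 1 exception, whereas with FPKM rescaled to a common sum none of the 76 was called lower at day 3 and 18 were called higher, against 2.2% and 46.9% of all tested genes with that scaling. The counts below, with the deposited scaling, stand against 19.8%, 14.4%, 11.3% and 1.69% of all tested genes called lower at days 3, 7, 14 and 21. Of 9 genes for its transcription, 5, 3, 3 and 0 were called lower at days 3, 7, 14 and 21 and none higher, with a median of -0.30 at day 3. They included Tfb2m, an initiation factor (-0.94 ± 0.16 at day 3, adjusted p = 7.18e-05), Tefm, an elongation factor (-0.77 ± 0.19, 0.00252), and Mterf2 (-0.74 ± 0.27, 0.0287). Of 21 genes for RNA processing, stability and decay, 10, 9, 3 and 0 fell and none rose. Among these were Grsf1, which binds RNA in mitochondrial granules (46.4 ± 5.36 to 21.2 ± 3.50 FPKM, -1.10 ± 0.21, adjusted p = 0.000157), Lrpprc, which stabilises mitochondrial mRNAs (-0.89 ± 0.16), and Fastk (-0.71 ± 0.20). Of 15 genes for copying and upkeep of the DNA, 8, 5, 4 and 0 fell, such as Slc25a33, a pyrimidine nucleotide carrier (-0.78 ± 0.18), the helicase Twnk (-0.72 ± 0.18) and the nuclease Mgme1 (-0.69 ± 0.18), while 1, Tk2, rose at day 3 (0.41).

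Translation in mitochondria was covered by a pair of lists. Of 20 genes for enzymes that charge the mitochondrial tRNAs or correct their charging, 6, 5, 3 and 0 fell and none rose, with Qrsl1 at -0.89 ± 0.14 at day 3 (adjusted p = 2.27e-05), Aars2 at -0.78 ± 0.17 and Fars2 at -0.70 ± 0.15. These shares lie near those of all tested genes and are no result about the list. Of 11 translation factors, 7, 6, 4 and 0 fell and none rose, with Gfm1 at -0.79 ± 0.21, Gfm2 at -0.74 ± 0.17 and Mtrf1 at -0.71 ± 0.25. The day 3 medians of these lists were -0.26 and -0.47, against -1.52 for the mitochondrial mRNAs and -1.14 for the nuclear subunits. Whether the lists differed from each other was not tested. With a common sum of FPKM the medians at day 3 were 0.15 for transcription, 0.33 for RNA processing, 0.22 for copying and upkeep, 0.27 for the charging enzymes and 0.22 for the translation factors, against 0.51 for all genes. With each sample's own total they were 0.09, 0.19, 0.15, 0.18 and 0.07, against 0.40. Relative to all genes these lists lay lower with either scaling.

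The tissue around the fibres changed as well. Counts of markers stand against all tested genes, of which 19.8%, 14.4%, 11.3% and 1.69% were called lower and 23.4%, 15%, 9.02% and 1.74% higher at days 3, 7, 14 and 21. Markers of muscle fibres, checked as the labelled tissue, were abundant in each sample, with a summed FPKM of 64726 in the uninjured median (most abundant Acta1, skeletal actin), and medians of 33948, 36145, 41424 and 53282 at days 3, 7, 14 and 21. Of 10 such markers 6, 5, 1 and 0 were called lower, at day 14 a share near that of all genes, among them Myh4, the myosin of the fastest fibres (-1.94 ± 0.43 at day 3), Tnnt3 (-1.57 ± 0.38) and Ckm (-1.43 ± 0.33). With the deposited scaling none of the 10 was called higher, and 8 had negative estimates at each of the 4 time points. The highest estimate was 0.25 at day 3 and 0.64 at day 7. At day 3, 2 of the 10 were called lower and 1 higher with a common sum of FPKM or with quantile normalization. Among all tested genes 2.2% were called lower and 46.9% higher with the former, and 25.5% and 19% with the latter. The 11 macrophage and leukocyte markers had medians of the summed FPKM of 37.4, 2030, 400, 137 and 83.0 without injury and at the 4 time points (most abundant Lyz2), and 11, 9, 3 and 0 were called higher, with Lyz2 at 5.77 ± 0.61, Cd68 at 5.53 ± 0.65 and C1qb at 5.18 ± 0.55 at day 3. The 7 fibroblast markers had medians of 92.4, 597, 611, 457 and 187 (most abundant Col1a1), and 6, 6, 6 and 2 were called higher, with Postn at 3.95 ± 0.48, Col1a1 at 3.66 ± 0.39 and Col3a1 at 3.16 ± 0.38 at day 3. No marker of these 3 lists was at 0 in all samples. In bulk muscle, fewer cells of a type and less RNA per cell cannot be told apart, and the part of these cells in the fall of the mitochondrial transcripts was not tested.

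Other lists moved little or in a few genes, and their counts stand against the same shares of all tested genes called lower (19.8%, 14.4%, 11.3% and 1.69%) and higher (23.4%, 15%, 9.02% and 1.74%). With so few members, 1 gene called is no result about a list. Of 5 endothelial markers 2, 1, 1 and 1 were called lower, with Kdr at -1.33 ± 0.20 and Tek at -0.57 ± 0.20 at day 3, and Kdr was lower at each time point. With a common sum of FPKM 1 of the 5 was called lower and 1 higher at day 3, against 2.2% and 46.9% of all tested genes. Of 3 tested adipocyte markers 0, 3, 0 and 0 were called higher, with median log2 fold changes of 0.06, 1.64, 1.002 and 0.51, and their summed FPKM had medians of 1.16 without injury and 1.08, 16.8, 5.91 and 2.51 at days 3, 7, 14 and 21 (most abundant Adipoq). Only 3 of the 5 listed adipocyte markers passed the filter, and genes at such low levels can pass it through the samples where they are high. The calls at day 7 are therefore no result about the list. Differences between the time points were not tested. No erythroid marker was called. RNAs of nuclear genes listed as without a poly(A) tail, among them histone mRNAs, were read beside poly-T selection. How well they gauge what passes it was not tested. Of 17 listed, 8 were at 0 in all samples and 6 were tested, and 4 of these were lower at day 3 and 1 higher, with Hist1h4h at -1.63 ± 0.36 and Hist1h4i at -1.21 ± 0.40, while Hist1h3c was at 0 in all uninjured samples and at 0.896 ± 0.683 FPKM at day 3. The estimate of Hist1h3c could therefore not be negative. With a common sum of FPKM 1 of the tested RNAs was called lower and 1 higher, against 2.2% and 46.9% of all tested genes. Their summed FPKM had medians of 332 without injury and 177 at day 3, and the part of the selection in the values of the mitochondrial rRNAs and tRNAs was not tested.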

How the data were processed

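Gene expression was measured by poly(A)-selected RNA sequencing of 27 tibialis anterior samples. The authors deposited one table of FPKM per gene, and the submitters' processing notes name HISAT2 2.0.5 and featureCounts 1.5.0-p3. The genome build, the annotation and the handling of reads with several matches are not given in the sources used here. The coordinates in the table were the same as those of GENCODE M21 (GRCm38) for 98.3% of the 54409 genes found there and for all 37 mitochondrial genes. Reads were recovered as FPKM × length up to a scale per sample, with a tolerance of 0.01. The main test was limma 3.58.1 in R 4.3.3 (lmFit, eBayes with trend) on log2(FPKM + 1), as described above, two-sided, with all 27 samples in one fit, tested on simulated data. Exact permutation tests over samples are two-sided.

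The mitochondrial genes and all gene lists were chosen with earlier results of these data known. Named are all mitochondrial mRNAs and rRNAs, the 5 tRNAs with the highest median reads, tRNAs that were called, and of each other list the 3 called genes with the largest change at day 3. Alternatives were other pseudocounts, filters, scalings, variance models and sample sets, the replicate number or letter as a block, and each sample left out. Leaving out day 3 replicate 5 and day 7 replicate 5 together, and rescaling the gene lists, were chosen after seeing the data.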

Additional observations from a re-analysis of the deposited data

Results flagged for a closer look

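Among 165 checks of a sample against its group, 15 found a sample far from the rest (9.09%, against 5% by chance). Day 7 replicate 6 held 28.4% of its reads in mitochondrial genes (next highest of its group 13.7%), 0.795% in the mitochondrial rRNAs (0.362%), 0.0896% in the tRNAs (0.0424%) and 0.358% in the copies on chromosome 1 (0.108%). Its log2(FPKM + 1) of mt-Rnr1 was 12.07 (next 10.37). Day 21 replicate 5 held 0.443% of its reads in the copies (0.187%). Day 7 replicate 1 and day 14 replicate 1 stood apart in the FPKM ratio of mt-Nd5 to mt-Nd4, at 0.699 and 0.7098 (next 0.373 and 0.3803), and the former also in that of mt-Nd6 to mt-Nd5, at 1.34 (next 2.21).

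Low values on the log2(FPKM + 1) scale were 8.35 for mt-Atp6 in day 21 replicate 4 (next 10.38), 5.29 for mt-Nd4l in day 3 replicate 4 (6.34), 7.69 for mt-Tn in day 14 replicate 1 (9.11) and 9.36 for mt-Te in uninjured replicate 3 (9.70). The ratio of mt-Nd6 to mt-Nd5 was 2.39 in day 3 replicate 3 (2.72), and that of mt-Rnr1 to mt-Rnr2 was 1.37 in day 3 replicate 5 (1.53). The changes of mt-Co1, mt-Tc and mt-Atp6 differed between days 21 and 3, by log2 fold changes of 1.21, 1.598 and 1.76 in limma's test of the difference.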

How the results depend on the processing

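The called mitochondrial genes named above kept their direction in each alternative, with the exception of mt-Cytb at day 3, while many calls were lost. For nuclear genes the other settings were run on counts and medians of lists, not gene by gene. Of the mRNAs called at day 14, mt-Co2 was called in 12 of 14 other settings and mt-Co3 in 13, and in 24 and 27 of the 27 fits that left out a sample. In day 21 against day 3, mt-Co1, mt-Atp6 and mt-Tc were called in 6, 8 and 8 of the 14 and in 22, 19 and 21 of the 27. Over 14 other settings, 91 selected results of single genes kept direction and side 1107 times, lost the call 137 times, gained one 10 times and turned direction 20 times. The turns of mt-Nd1, mt-Nd2, mt-Nd3, mt-Nd5 and mt-Nd6 in day 21 against day 3, given above, are not among these. The causes were not tested.

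With no filter on low values, which tests more genes, 4, 3 and 0 mRNAs were called lower at days 3, 7 and 14, 4, 5, 0 and 0 rRNAs and tRNAs at days 3, 7, 14 and 21, and 0 mitochondrial genes higher in day 21 against day 3. Quantile normalization gave 4, 4 and 1 mRNAs, 7, 8 and 0 rRNAs and tRNAs at days 3, 7 and 14, and 1 gene. A common sum of FPKM gave 3, 7 and 0 rRNAs and tRNAs and 0 genes, each sample's own total 4, 7 and 0 and 0 genes, and a common sum outside the mitochondrial genome 4, 6 and 0 and 0 genes, while mt-Ti was called lower in day 21 against day 3 with each of the 3. A fit of only the groups compared gave 4 mRNAs at day 7, 9 and 1 rRNAs and tRNAs at days 14 and 21, and 7 genes. A filter of FPKM 1 gave 5 genes and limma without the trend 6. Without day 3 replicate 5 and day 7 replicate 5 there were 6 mRNAs and 7 rRNAs and tRNAs at day 7, and 5 genes. Shares of all genes called are not set beside these counts, so their shifts are no result about the mitochondrial genes alone.

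With the replicate number as a block, 9 genes were called higher in day 21 against day 3 and 5 rRNAs and tRNAs at day 14, and with the letter as a block 0 genes. The nuclear subunits called lower at day 14 numbered 42 with the number and 34 with the letter as a block, against 18. Shares of all genes called with a block are not given here. Same-numbered samples had a median r of -0.003, with 15 of 51 pairs over 0.1. In days 7 and 14 the 6 pairs ran from 0.0915 to 0.566 and 5 were over 0.1, whereas against uninjured muscle at most 1 of 5 was at any time point. In no pair of groups were all over 0.1, but all 6 pairs of days 7 and 14 were positive (median 0.224). The highest of these, 0.566, was between day 7 replicate 1 and day 14 replicate 1, the libraries that stood apart in the ratio of mt-Nd5 to mt-Nd4. Whether samples of the same number share more than the number was not tested.

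Leaving out each sample in turn gave 10 to 13, 6 to 12, 1 to 3 and 0 mRNAs at days 3, 7, 14 and 21, 7 to 15, 6 to 16, 0 to 5 and 1 to 6 rRNAs and tRNAs, and 0 to 11 genes higher in day 21 against day 3.

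Under quantile normalization the log2 fold change turned to 0.0241 for mt-Cytb at day 3 and to 0.0172 for mt-Tc at day 7, to 0.0128 for mt-Nd4l, 0.113 for mt-Nd4, 0.0736 for mt-Nd5, 0.188 for mt-Cytb, 0.0530 for mt-Tp and 0.0930 for mt-Tc at day 14, and to 0.132 for mt-Cytb and 0.204 for mt-Tn at day 21. With a common sum it was 0.0294 for mt-Tn at day 7, 0.0630 for mt-Atp8, 0.129 for mt-Nd4l and 0.0691 for mt-Nd5 at day 14, and 0.1404 for mt-Tn at day 21. For mt-Nd4l at day 14 and mt-Tn at day 21 it was 0.0530 and 0.141 with each sample's own total and 0.0224 and 0.0677 with the common sum outside the mitochondrial genome, and with the letter block mt-Tc had -0.202 at day 21. With single samples left out, values at day 21 ran from -0.827 to 0.0828 for mt-Atp8, from -0.364 to 0.268 for mt-Tc and from -0.353 to 0.150 for mt-Tn. The call of mt-Ti at day 21 was lost with no filter (adjusted p = 0.117 by limma) and in the fit of only the groups compared (0.0703), and that of mt-Ts2 with no filter (0.0803).

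As a share of summed FPKM in place of reads, mitochondrial genes held 37.7%, 23.5%, 24.63%, 32.6% and 33.7% without injury and at days 3, 7, 14 and 21, against 22.3%, 12.5%, 13.5%, 18.8% and 20.4%. Depth limits mt-Atp8 and the tRNAs with few reads.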
